A study of Mus musculus with 6 samples.

Results

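Cholesterol synthesis and its control by sterol regulatory element binding proteins (SREBPs) were followed through 29 genes in bulk RNA sequencing of mouse cerebellum. The genes were taken by their GENCODE M21 symbol from a list that covers cholesterol synthesis, SREBP targets and cholesterol turnover. All 29 had a row in the count table of 48709 Ensembl identifiers, and all 29 passed the filter on low counts. The list does not hold every enzyme of the pathway. The comparison was within C57BL/6J mice aged 40 weeks, between 3 wild-type samples and 3 samples from SCA7 140Q/5Q knock-in mice, which carry 1 Atxn7 allele that encodes 140 glutamines and 1 that encodes 5. SCA7 is spinocerebellar ataxia type 7, an inherited disease of cerebellum and retina caused by a long glutamine repeat in ataxin-7. A knock-in places the repeat in the gene itself, so no separate promoter restricts it to a cell type. RNA came from the cerebellum with all its cells, so fewer cells of a type and less RNA per cell cannot be told apart in any result. The labels number the samples without stating that they came from separate animals, and the p-values reflect only how far these samples spread, part of which may be technical.

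SREBPs are made as membrane proteins of the endoplasmic reticulum. When sterols are scarce, the escort protein SCAP carries them to the Golgi, where they are cut, and the released part enters the nucleus and switches on genes of sterol and fatty acid synthesis. INSIG proteins hold SCAP back when sterols are plentiful, and liver X receptors, which sense oxidised sterols, drive Srebf1 and the efflux pumps Abca1 and Abcg1. The blood-brain barrier keeps out lipoprotein cholesterol, so brain cells make their own. Oligodendrocytes use it for myelin, astrocytes pass it to neurons, and neurons clear it through the hydroxylase CYP46A1.

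SREBPs bind sterol regulatory elements, commonly beside a CCAAT box, which nuclear factor Y binds. The upstream sequences of 3 genes are shown, a synthesis enzyme (Hmgcs1), a feedback regulator (Insig1) and a fatty acid enzyme (Fasn), because they hold these motifs in different numbers and order. They are RefSeq windows of GRCm38.p6 (mm10), 5′ to 3′ on the strand of the gene, and end before the RefSeq start (Hmgcs1) or before the first GENCODE M21 exon (Insig1 and Fasn). They lie at chr13:119690101-119690350 on the plus strand (Hmgcs1), chr5:28071162-28071362 on the plus strand (Insig1) and chr11:120824548-120824797 on the minus strand (Fasn). Capitals mark CCAAT or its reverse complement ATTGG, the E-box CACGTG, and the SREBP motif TCACNCNAC.
Hmgcs1: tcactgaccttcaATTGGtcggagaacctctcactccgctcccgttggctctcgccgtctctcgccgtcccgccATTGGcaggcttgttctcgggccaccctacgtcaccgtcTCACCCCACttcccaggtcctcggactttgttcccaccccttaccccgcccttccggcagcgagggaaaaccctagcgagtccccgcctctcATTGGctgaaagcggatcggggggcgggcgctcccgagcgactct
Insig1: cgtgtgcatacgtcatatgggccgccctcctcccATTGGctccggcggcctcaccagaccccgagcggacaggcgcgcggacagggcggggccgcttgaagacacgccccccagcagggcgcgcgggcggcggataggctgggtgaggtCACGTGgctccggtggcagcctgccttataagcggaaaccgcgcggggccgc
Fasn: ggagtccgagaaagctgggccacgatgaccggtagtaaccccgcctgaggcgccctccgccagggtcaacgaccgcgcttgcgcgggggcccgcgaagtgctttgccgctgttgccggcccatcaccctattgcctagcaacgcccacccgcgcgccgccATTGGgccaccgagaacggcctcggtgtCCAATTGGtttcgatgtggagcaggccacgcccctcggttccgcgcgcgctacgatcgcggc
The Hmgcs1 sequence shown has 3 CCAAT boxes and 1 TCACNCNAC match between them, and its whole RefSeq window has 4 CCAAT matches. Insig1 has 1 CCAAT box and 1 CACGTG. Fasn has 3 CCAAT matches, of which the 2 nearest the start overlap on opposite strands. RefSeq windows from 250 bases before to 50 after the start were matched for 22 of the 29 genes (27 windows). On either strand, CCAAT was in 21 of these windows (77.8%), against 37.41% of all 32851 windows. CACGTG was in 5 windows (18.5% against 7.15%), those of Abca1, Dhcr7, Hsd17b7, Insig1 and Sc5d. TCACNCNAC was in 2 windows (7.4% against 2.7%), those of Hmgcs1 and Nsdhl. A match describes the letters in the window and shows no binding.

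The libraries held between 34630391 and 49127673 counts, and 0.349 to 0.415% of each fell on the 29 genes. Over all 16699 genes tested with edgeR's quasi-likelihood test, 318 (1.9%) passed a Benjamini-Hochberg adjusted p of 0.05, 213 of them lower (1.28%) and 105 higher (0.629%) in knock-in. With libraries scaled by total count alone the split was 323 higher and 190 lower. Markers of cerebellar cells were present in every library, and several lists were lower in knock-in. Summed Purkinje cell markers ran from 12444 to 14097 CPM (the count scaled by the library's TMM-adjusted size) in wild type and from 8110 to 9771 in knock-in, with 5 of 8 markers called lower. Granule neuron markers summed to 4633 to 5183 and 3504 to 4266 CPM (3 of 6 called lower), and astrocyte and Bergmann glia markers to 3364 to 3553 and 2586 to 2963 CPM (3 of 7 called lower). Within these 3 lists the groups overlapped for Pcp2 (Purkinje), Gabra6 and Zic1 (granule neuron), and Gdf10 and Hopx (astrocyte and Bergmann glia). Oligodendrocyte markers overlapped, at 2209 to 2612 and 2077 to 2270 CPM (2 of 9 called lower), while those of oligodendrocyte precursors were 89.3 to 118 and 137 to 143 CPM. Of these 4 precursor markers Olig1 alone was called, with means of 53.0 and 87.7 CPM, while Pdgfra (29.3 and 26.6 CPM) and Gpr17 (18.03 and 17.9 CPM) were not higher in knock-in. Endothelial markers were 201 to 210 and 173 to 188 CPM, with none of 4 called by edgeR. Only Flt1 had separate groups, with means of 81.1 and 60.3 CPM, while Cldn5, Pecam1 and Ly6c1 overlapped. Choroid plexus markers varied between libraries, from 494 to 1873 and from 16.6 to 1293 CPM, and brainstem markers were 2.14 to 5.94 and 6.70 to 48.0 CPM. None of the 59 markers was at 0 in every library. The part of these cell types in the results on sterol genes was not tested. Wild-type replicate 1 stood apart from the other libraries in how its counts followed GC content (Spearman correlation of -0.54 between a gene's deviation from its mean and its GC content).

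Of the 29 sterol genes, 2 passed the edgeR test: Srebf1 rose and Scd1 fell. That is 3.45% in each direction, beside 0.629% higher and 1.28% lower over all genes. In 8 genes all knock-in samples lay below all wild-type samples (27.6%, beside 11.5% of all genes tested): Hmgcs1, Sqle, Cyp51, Msmo1, Dhcr7, Insig1, Scd1 and Scd2. In 2 genes, Mvk and Srebf1, they lay above (6.9%, beside 12.3%). An unadjusted p under 0.05 was reached by 7 genes in the lower direction (24.1%, beside 8.26% of all genes) and 2 in the higher (6.9%, beside 9.81%). The median log2 fold change, knock-in over wild type, was -0.07 over the 29 genes and 0.01 over all genes. With 1 library left out, edgeR called none of the 29 genes (7 to 11 had an unadjusted p under 0.05), except when it was knock-in replicate 2. Calls over all genes fell in the same omissions, from 318 to between 39 and 89, so the loss was not particular to Srebf1 and Scd1. Without knock-in replicate 2, Srebf1 (adjusted p = 0.0379), Scd1 (0.0345) and also Scd2 were called, beside 858 of all genes. Over all omissions the log2 fold change ran from 0.39 to 0.63 for Srebf1 and from -0.48 to -0.36 for Scd1.

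**Figure D1:**
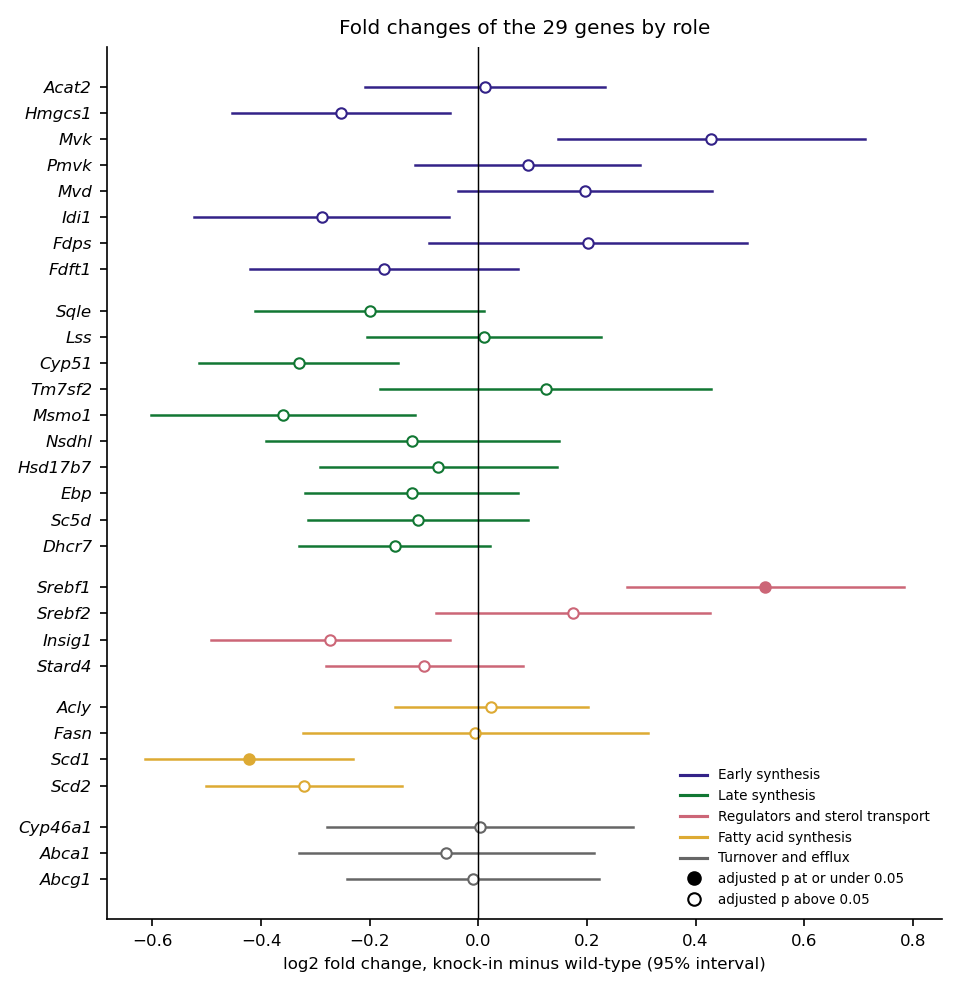
Log2 fold change (knock-in over wild type, horizontal axis) of each of the 29 genes, ordered by role, with 95% confidence intervals from edgeR and 3 samples a group. Srebf1, at 0.53, and Scd1, at -0.42, are the 2 genes called, and 18 of the 29 points lie below 0.

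Among the regulators, Srebf1 rose by 44.2% while its paralogue Srebf2 did not pass the test and Insig1 lay lower in all knock-in samples. Srebf1 encodes the SREBP that mainly drives fatty acid synthesis (ENSMUSG00000020538, chr11:60199089-60222581, minus strand, mm10). It had 49.5, 69.5 and 64.3 CPM over the wild-type samples against 88.8, 87.5 and 87.9 CPM over the knock-in samples. The knock-in values were close together and all above wild type, where replicate 1 was low. The log2 fold change was 0.53 ± 0.12 (SE, n = 3 a group, edgeR adjusted p = 0.0494), which is close to the threshold. Without wild-type replicate 1 it was 0.39 (adjusted p = 0.0992), and over the libraries whose omission ended the call the adjusted p ran from 0.0557 to 0.153. The call also ended with DESeq2's size factors in edgeR (adjusted p = 0.0586), at a mean CPM of at least 1 (0.0554) and with limma-voom (0.05004).

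Srebf2 encodes the SREBP that mainly drives cholesterol synthesis. It had 98.7, 134.9 and 124.4 CPM over the wild-type samples against 134.5, 144.1 and 125.2 CPM over the knock-in samples, and the groups overlapped. Its log2 fold change was 0.17 ± 0.11 (SE, n = 3 a group, edgeR adjusted p = 0.454), with a 95% interval from -0.08 to 0.43. The ratio of Srebf1 to Srebf2, both as CPM per kilobase of exon, was 0.64, 0.66 and 0.66 over the wild-type samples against 0.84, 0.77 and 0.89 over the knock-in samples. These ranges did not overlap, and an exact two-sided permutation test gave p = 0.1, the smallest that 3 against 3 samples allow (adjusted p = 0.3 over 3 ratios, which were chosen after the values were seen).

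Insig1, itself a target of SREBPs and the most abundant of the 4 regulators and transport genes per length, had 119.6, 102.3 and 103.3 CPM over the wild-type samples against 94.7, 79.2 and 95.4 CPM over the knock-in samples. Its groups did not overlap, but the log2 fold change of -0.27 ± 0.10 (SE, n = 3 a group) did not pass the edgeR test (adjusted p = 0.190). Stard4, which carries cholesterol between membranes, had means of 63.1 ± 2.74 and 58.9 ± 3.80 CPM (SD, n = 3), and its groups overlapped. Thus 1 of these 4 genes was called (25%, beside 0.629% called higher over all genes), and their median log2 fold change was 0.04. This median turned to -0.02 without wild-type replicate 1 and to -0.0052 without knock-in replicate 2, and was 0.09 without knock-in replicate 3 and 0.07 without wild-type replicate 2.

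**Figure D2:**
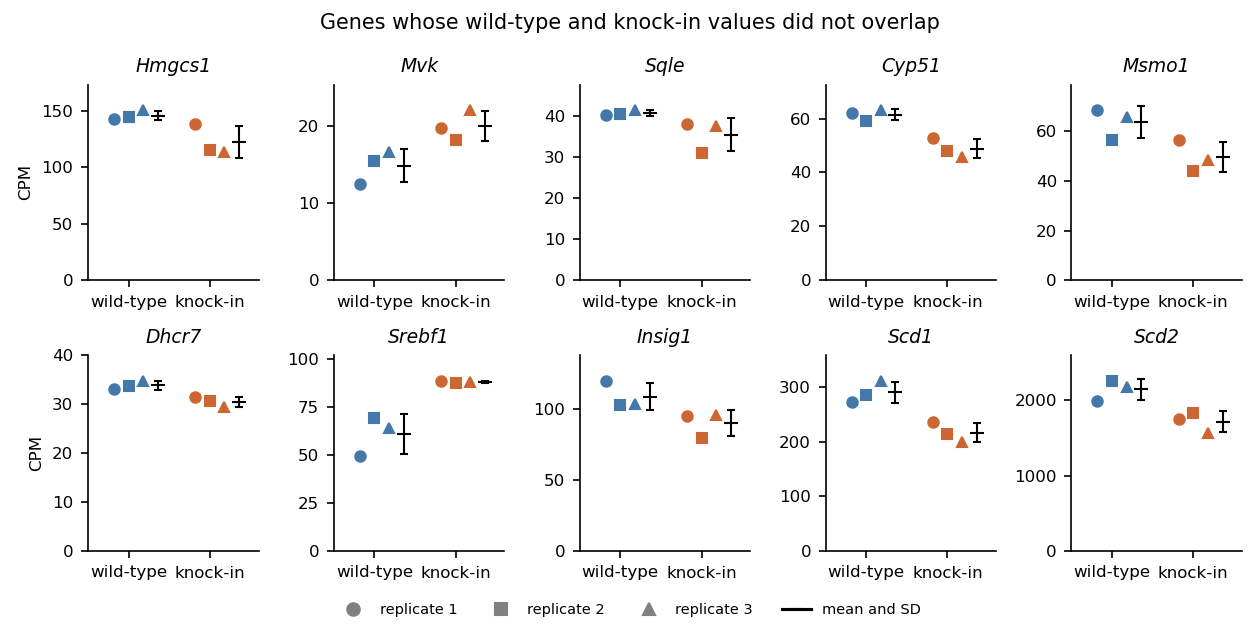
Normalised read count (CPM, vertical axes, 1 panel per gene) of each sample in wild type and knock-in for genes whose groups do not overlap; bars are the mean and SD of 3 samples. All 3 knock-in samples of Srebf1 sit between 87.5 and 88.8 CPM, above the wild-type samples, and those of Scd1 sit between 199.7 and 235.0 CPM, below them.

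In the early steps, from acetyl-CoA to squalene, none of 8 genes was called by edgeR. An unadjusted p under 0.05 was reached by 2 lower (25%, beside 8.26% of all genes) and 1 higher (12.5%, beside 9.81%). The directions were mixed: 5 had a log2 fold change above 0 and 3 below, with a median of 0.05. The median was 0.00038 without knock-in replicate 3, 0.02 without wild-type replicate 1 and 0.11 without knock-in replicate 2. With offsets for GC content and length, Pmvk (-0.07) and Mvd (-0.02) were below 0. Hmgcs1 makes the substrate of the pathway's rate-limiting reductase (ENSMUSG00000093930, chr13:119690379-119708260, plus strand). It had 142.5, 144.1 and 150.6 CPM over the wild-type samples against 138.2, 115.0 and 113.8 CPM over the knock-in samples. Knock-in replicate 1 lay just under the wild-type samples and the other two well under them. The log2 fold change was -0.25 ± 0.09 (SE, n = 3 a group, edgeR adjusted p = 0.184). On the opposite strand, an antisense gene covers 12.1% of its exon bases, and the strand setting of the counting is not given in the sources used here.

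Mvk, the kinase that phosphorylates mevalonate, went the other way. It had 12.5, 15.4 and 16.7 CPM over the wild-type samples against 19.7, 18.1 and 22.1 CPM over the knock-in samples, with all knock-in samples higher. Its log2 fold change was 0.43 ± 0.13 (SE, n = 3 a group, edgeR adjusted p = 0.122), so it did not pass. Pmvk, which adds the next phosphate and was second to Hmgcs1 in this group per length, overlapped, at 32.5, 36.9 and 37.7 against 38.6, 34.9 and 40.5 CPM (log2 fold change 0.09 ± 0.09, SE, edgeR adjusted p = 0.651).

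Idi1, which interconverts the isoprene building blocks, had means of 46.4 ± 3.43 and 37.99 ± 4.92 CPM (SD, n = 3). Its groups overlapped through knock-in replicate 1, at 43.5 CPM, and its log2 fold change was -0.29 (edgeR adjusted p = 0.194). The decarboxylase gene Mvd had 0.20, the farnesyl diphosphate synthase gene Fdps 0.20, the thiolase gene Acat2 0.01 and the squalene synthase gene Fdft1 -0.17 as log2 fold changes, each with overlapping groups. Several of these are counted with uncertainty: Fdps shares 26.7% of its exon bases with the protein-coding model Gm43738 on the same strand, and runs of 50 bases found in other genes' transcripts make up 45.9% of those of Acat2, 30.7% of Fdft1 and 30.5% of Idi1.

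In the late steps, from squalene to cholesterol, 8 of 10 genes had a log2 fold change below 0, as did 8127 of all 16699 genes. In 4 of the 10 all knock-in samples lay below wild type (40%, beside 11.5% of all genes tested). Yet none passed the edgeR test, and 2 had an unadjusted p under 0.05, both lower (20%, beside 8.26% of all genes). The median was -0.12. Cyp51 demethylates lanosterol (ENSMUSG00000001467, chr5:4081145-4104746, minus strand). It had 62.03, 59.05 and 63.2 CPM over the wild-type samples against 52.7, 48.0 and 45.8 CPM over the knock-in samples, a clear gap between the groups. Its log2 fold change of -0.33 ± 0.08 (SE, n = 3 a group) missed the threshold (edgeR adjusted p = 0.0805).

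Msmo1, which acts after Cyp51 in removing methyl groups from the sterol ring, had 68.5, 56.5 and 65.9 CPM over the wild-type samples against 56.3, 44.1 and 48.3 CPM over the knock-in samples. Its groups met almost edge to edge, since knock-in replicate 1 was just below wild-type replicate 2. The log2 fold change was -0.36 ± 0.11 (SE, n = 3 a group, edgeR adjusted p = 0.128).

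Sqle, the monooxygenase that opens the late steps, had 40.3, 40.3 and 41.4 CPM over the wild-type samples against 37.97, 30.9 and 37.5 CPM over the knock-in samples (log2 fold change -0.20 ± 0.10, SE, edgeR adjusted p = 0.300). Knock-in replicate 2 was the lowest here. Dhcr7, the last reductase before cholesterol, had 33.0, 33.8 and 34.8 CPM against 31.4, 30.6 and 29.4 CPM (log2 fold change -0.15 ± 0.08, SE, edgeR adjusted p = 0.334). Its groups were tight and separate, with a percent change of -10.2. The sterol isomerase gene Ebp, the most abundant late gene per kilobase of exon (Msmo1 stood above it per kilobase of longest transcript), overlapped, at 34.9, 34.7 and 36.7 against 29.9, 35.3 and 32.3 CPM (log2 fold change -0.12 ± 0.09, SE, edgeR adjusted p = 0.503).

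The other late genes overlapped too. Nsdhl (-0.12), Sc5d (-0.11) and Hsd17b7 (-0.07), which finish demethylation and set the double bonds and the hydroxyl group of the ring, lay below 0 on the log2 fold change scale. Lss, the cyclase that forms lanosterol, was at 0.01 with a 95% interval from -0.20 to 0.23, and the reductase gene Tm7sf2 at 0.12 with an interval from -0.18 to 0.43. The count of Tm7sf2 is uncertain, since it shares 12.1% of its exon bases with the protein-coding gene Vps51 on the same strand. Over both groups of steps no gene of 18 was called by edgeR. An unadjusted p under 0.05 was reached by 4 lower (22.2%, beside 8.26% of all genes) and 1 higher (5.56%, beside 9.81%). DESeq2 called 3 of the 18, Mvk higher and Cyp51 and Msmo1 lower, beside 934 of all 16699 genes.

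**Figure D3:**
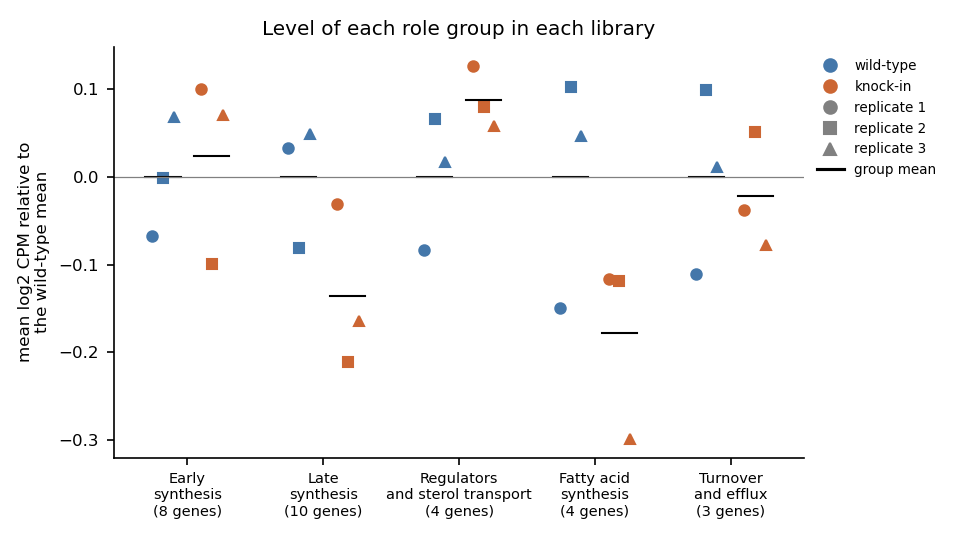
Mean log2 CPM of the genes of each role group in each sample, relative to the wild-type mean (vertical axis, log2 units); points are samples and bars are means of 3. Late synthesis genes lie at -0.03, -0.21 and -0.16 in knock-in against 0.03, -0.08 and 0.05 in wild type, and the groups overlap.

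Read per sample, the role groups did not separate the genotypes fully. The mean log2 CPM of the 10 late genes, set to 0 at the wild-type mean, was 0.03, -0.08 and 0.05 over the wild-type samples against -0.03, -0.21 and -0.16 over the knock-in samples. Here knock-in replicate 1 was inside the range of wild type and the other two were below it. The 8 early genes gave -0.07, 0.00 and 0.07 against 0.10, -0.10 and 0.07, with no separation. The 4 fatty acid genes gave -0.15, 0.10 and 0.05 against -0.12, -0.12 and -0.30, where wild-type replicate 1 was as low as 2 of the knock-in samples.

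Of the fatty acid genes, both stearoyl-CoA desaturases were lower in every knock-in sample, and Scd1 passed the test, whereas Acly and Fasn did not pass it, with mean changes of 1.70% and -0.41%. Desaturases put the double bond into saturated fatty acids for phospholipids and cholesterol esters. Scd1 (ENSMUSG00000037071, chr19:44394455-44407879, minus strand) had 272.9, 286.2 and 311.4 CPM over the wild-type samples against 235.0, 214.8 and 199.7 CPM over the knock-in samples. It fell by 25.4%, a log2 fold change of -0.42 ± 0.09 (SE, n = 3 a group, edgeR adjusted p = 0.0398). Over the 5 libraries whose omission ended the call, the adjusted p ran from 0.0824 to 0.142, and with libraries scaled by total count alone it was 0.0537.

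Scd2 lies near Scd1 (ENSMUSG00000025203, chr19:44293674-44306864, plus strand) and is the main desaturase of brain. It had 1996, 2258 and 2173 CPM over the wild-type samples against 1754, 1831 and 1559 CPM over the knock-in samples. Its groups were separate and its mean was lower by 20.0% (percent change -20.0), but the log2 fold change of -0.32 ± 0.08 (SE, n = 3 a group) missed the threshold (edgeR adjusted p = 0.0818). Runs of 50 bases shared with other desaturase genes make up 4.7% of those of the longest Scd1 transcript and 4.0% of those of Scd2. The ratio of Scd2 to Scd1 per kilobase was 6.55, 7.06 and 6.25 over the wild-type samples against 6.68, 7.63 and 6.99 over the knock-in samples, and these overlapped (exact two-sided permutation test, p = 0.3).

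Acly, which makes cytosolic acetyl-CoA from citrate, had 255.4, 280.4 and 264.7 CPM against 292.7, 267.2 and 254.2 CPM (log2 fold change 0.02, 95% interval -0.15 to 0.20). Fasn, the fatty acid synthase gene, varied more, with 134.0, 206.7 and 179.1 CPM over the wild-type samples against 169.2, 193.1 and 155.5 CPM over the knock-in samples. Its log2 fold change was -0.01 with a 95% interval from -0.32 to 0.31, and it was 0.07 when libraries were scaled by total count alone. The ratio of Scd1 to Fasn per kilobase was 4.56, 3.10 and 3.89 over the wild-type samples against 3.11, 2.49 and 2.87 over the knock-in samples, and the ranges just overlapped (exact two-sided permutation test, p = 0.2).

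Genes of turnover and efflux showed no difference that the test could detect, with none of 3 called by edgeR and none at an unadjusted p under 0.05. Cyp46a1, the hydroxylase that starts the removal of cholesterol from neurons, had 28.97, 36.1 and 39.7 CPM over the wild-type samples against 34.3, 31.3 and 39.4 CPM over the knock-in samples (log2 fold change 0.00, 95% interval -0.28 to 0.28). The efflux pump gene Abcg1, the most abundant of the 3 per length, had 93.0, 116.6 and 106.3 against 99.2, 116.9 and 97.5 CPM (log2 fold change -0.01 ± 0.10, SE, edgeR adjusted p = 0.971). Abca1, which loads lipid onto apolipoproteins, had a log2 fold change of -0.06 with an interval from -0.33 to 0.21. The intervals leave room for changes of the size seen in Insig1 for Cyp46a1 and Abca1.

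Levels per length spread widely between the 29 genes. Scd2 stood first, at 392 ± 24.5 CPM per kilobase of exon in wild type and 314 ± 25.7 in knock-in (SD, n = 3). It was followed in wild type by Scd1 (59.3 ± 3.99), Acly (50.5 ± 2.39), Insig1 (35.05 ± 3.13) and Hmgcs1 (31.7 ± 0.935), of which Insig1 and Hmgcs1 lay within their joint spread. In knock-in Acly (51.4 ± 3.71) stood above Scd1 (44.3 ± 3.63). Srebf1 moved from rank 16 to rank 9, from 10.8 ± 1.84 to 15.6 ± 0.117 CPM per kilobase, while Srebf2 was seventh in both groups, at 16.6 ± 2.60 and 18.7 ± 1.31. At the lower end stood Lss (3.22 ± 0.121), Tm7sf2 (2.47 ± 0.326) and Fdps (1.70 ± 0.159) in wild type. With the longest transcript in place of all exon bases, Msmo1 (10.4 to 21.4), Dhcr7 (5.83 to 12.0), Lss (3.22 to 4.97) and Cyp46a1 (10.6 to 16.5) moved by over 1.5 times. On that scale Acly (60.3) and Scd1 (60.1) were level, and Hmgcs1 (42.1) stood above Insig1 (40.2).

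**Figure D4:**
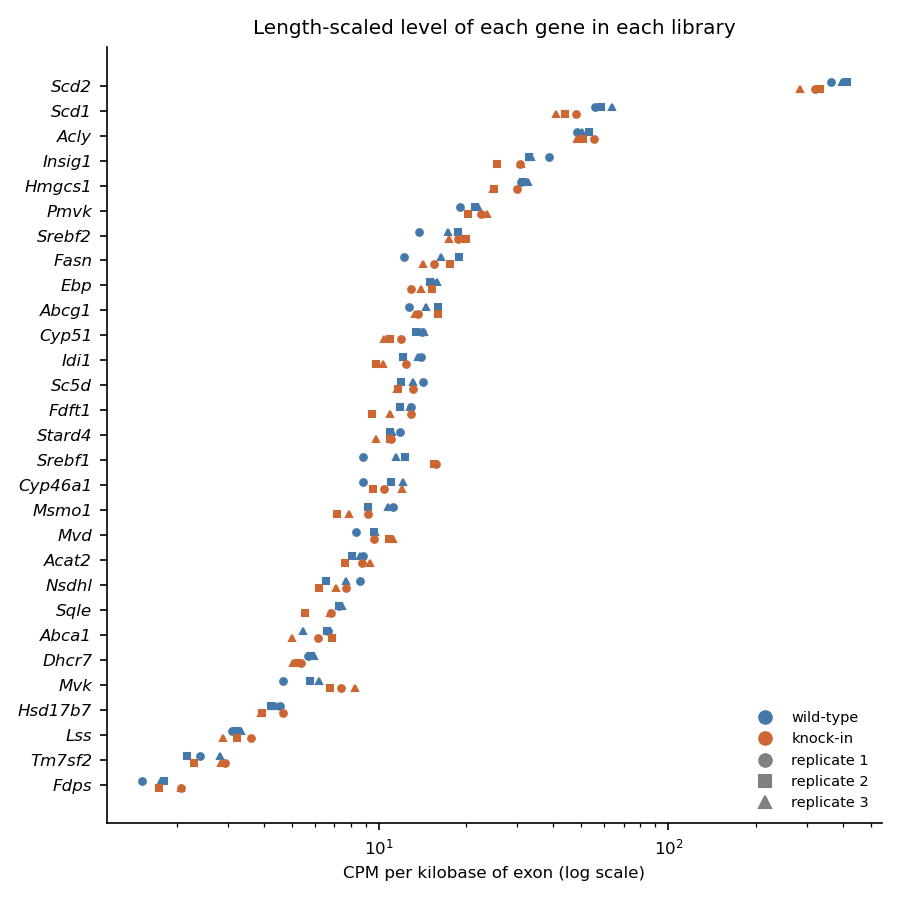
Length-scaled level (CPM per kilobase of exon, log axis) of the 29 genes in the 3 wild-type and 3 knock-in samples, ordered by the wild-type mean. Scd2 stands first at 392 in wild type and 314 in knock-in, and Fdps last at 1.70 and 1.96.

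The fold change of the sterol genes varied with the GC content of their transcripts. Across the 29 genes, whose longest transcripts hold 41.9 to 59.0% GC, the log2 fold change and GC content had a Spearman correlation of 0.66. This is a description across genes that share the same 6 libraries. Over 16656 genes tested with a known GC content it was 0.32. Of the 15 genes up to 49.6% GC, 13 had a log2 fold change below 0 (median -0.20), and of the 14 genes from 50.6% GC, 5 did (median 0.06). Srebf1 (58.4%) and Mvk (56.3%) are at the GC-rich end, and Scd1 (47.1%), Msmo1 (44.7%) and Hmgcs1 (43.1%) are in the lower part. Other genes at like GC contents varied. At the GC-rich end Mvd (59.0%), Srebf2 (57.9%) and Pmvk (57.0%) had log2 fold changes of 0.20, 0.17 and 0.09. There Cyp46a1 (58.5%) and Fasn (57.9%) had 0.00 and -0.01. At the lower end Idi1 (41.9%) had -0.29, and Sc5d (42.9%), Hsd17b7 (43.9%) and Stard4 (43.9%) had -0.11, -0.07 and -0.10. The median over all genes of at least 1 CPM was 0.15 and 0.20 in GC bins around 56.9 and 58.8%. It was -0.05 and -0.06 in bins around 41.1 and 43.1%. Between libraries, the correlation of each gene's deviation from its mean with GC content was -0.54 in wild-type replicate 1 and lay between 0.00 and 0.31 in the other five.

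With offsets for GC content and length in the edgeR model, the correlation became 0.42 over the 29 genes and 0.02 over all genes. Srebf1 had then a log2 fold change of 0.39 (adjusted p = 0.00821) and Scd1 of -0.39 (adjusted p = 0.0166). Scd2 (-0.29, adjusted p = 0.0458) and Cyp51 (-0.29, adjusted p = 0.0283) also passed, which makes 4 called genes, while Mvk had 0.30 (adjusted p = 0.0944). The 4 calls stand beside 721 of all genes called with these offsets.

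**Figure D5:**
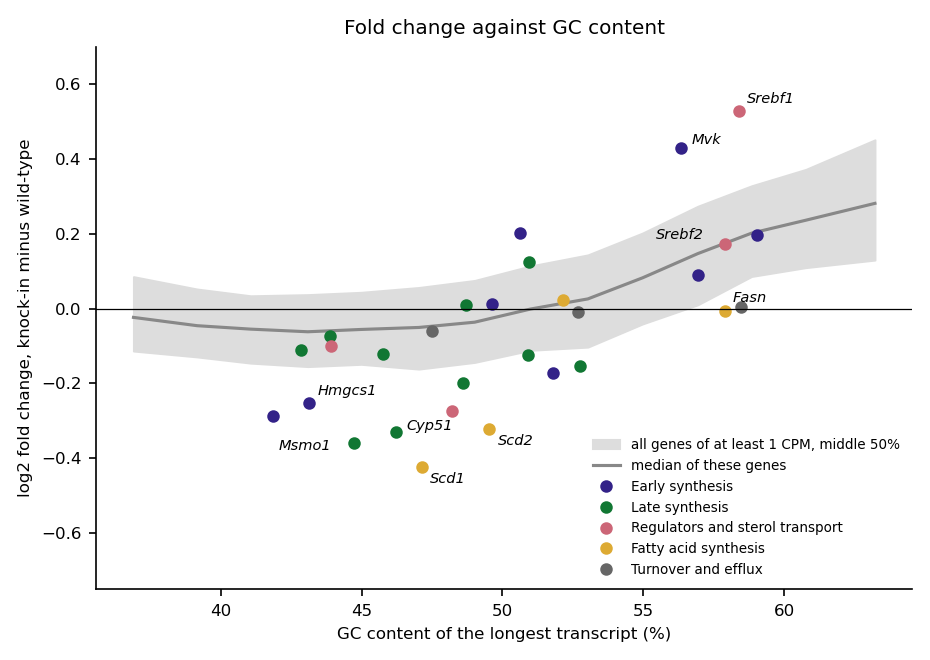
Log2 fold change (knock-in over wild type) against the GC content (percent) of the longest transcript for the 29 genes, with the median (line) and interquartile range (band) of tested genes of at least 1 CPM in GC bins. Srebf1 and Mvk, at 58.4 and 56.3% GC, lie highest. At a like GC content Fasn and Cyp46a1 lie near 0, and Mvd (0.20) and Srebf2 (0.17) lie between. Of the 15 genes up to 49.6% GC, 13 lie below 0.

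A further list of 34 genes of the same pathways was read from the same fit; 33 had a row and 32 were tested. None was called higher and 2 were called lower (6.25%, beside 1.28% of all genes tested). An unadjusted p under 0.05 was reached by 3 in the higher direction (9.38%, near the 9.81% of all genes) and 8 in the lower (25%, beside 8.26%). In 9 genes all knock-in samples lay below wild type (28.1%, beside 11.5%) and in 4 above (12.5%, near the 12.3% of all genes), and the median log2 fold change was -0.10. All 10 genes of fatty acid and lipid synthesis on this list had a log2 fold change below 0, as did 8127 of all 16699 genes tested. Their median was -0.19, with 1 call (10%, beside 1.28% of all genes). With libraries scaled by total count alone, Acacb, Me1 and Lpin1 were above 0. Over the 18 alternative settings given below, the direction held in 16 for Acaca, 14 for Acacb, 17 for Me1 and 12 for Lpin1. It held in all 18 for the others.

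Fads1, a desaturase of polyunsaturated fatty acids and an SREBP target (ENSMUSG00000010663, chr19:10182888-10196877, plus strand), had 250.7, 257.7 and 263.7 CPM over the wild-type samples against 175.0, 193.8 and 175.7 CPM over the knock-in samples. Every knock-in sample lay well under the lowest wild-type sample, and the log2 fold change was -0.50 ± 0.07 (SE, n = 3 a group, edgeR adjusted p = 0.0127). Lrp8, a receptor of reelin and apolipoprotein particles (ENSMUSG00000028613, chr4:107802261-107876840, plus strand), had 107.2, 108.1 and 98.8 CPM against 71.2, 83.4 and 70.4 CPM. It fell by 0.48 on the log2 scale (SE 0.09, n = 3 a group, edgeR adjusted p = 0.0273). Both calls were lost without wild-type replicate 3, knock-in replicate 1 or knock-in replicate 3, and that of Lrp8 also without wild-type replicate 1 or 2. The highest adjusted p was 0.0957 for Fads1 and 0.149 for Lrp8.

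Other genes of this list with separate groups and an unadjusted p under 0.05 did not pass the adjusted threshold. On the lower side these were the elongase gene Elovl5 (log2 fold change -0.26, edgeR adjusted p = 0.110), the lipoprotein receptor gene Vldlr (-0.30, 0.114), the acyltransferase gene Gpam (-0.34, 0.143), the sterol hydroxylase gene Cyp27a1 (-0.29, 0.156) and the cholesterol esterifying enzyme gene Soat1 (-0.25, 0.193). On the higher side they were Aacs, which feeds acetoacetate into lipid synthesis (0.39, 0.152), the liver X receptor gene Nr1h2 (0.45, 0.173) and Scap, the SREBP escort (0.30, 0.208). Scap, Nr1h2 and Aacs each had their lowest value in wild-type replicate 1 and hold 59.1, 60.6 and 56.9% GC. The most abundant genes of the list per length in wild type were Lcat (71.5 CPM per kilobase), which esterifies cholesterol in lipoproteins, Fads1 (53.5), Elovl5 (37.6), Me1 (24.5), a source of NADPH, and Insig2 (22.8), the second INSIG gene. Per kilobase of longest transcript Fads1 (74.4) stood above Lcat (71.5), and Insig2 (29.4) above Me1 (28.7). Of these, Me1 and Insig2 overlapped between the groups, at log2 fold changes of -0.03 and -0.03.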

How the data were processed

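Polyadenylated RNA of whole cerebellum was sequenced from stranded TruSeq libraries, per the labels' protocols. The authors deposited raw read counts for Ensembl gene identifiers. Per the submitters' processing notes, the counter was HTSeq 0.6.1 and the build mm10, and the notes also name bcl2fastq 2.17.1.14, TopHat2 2.0.14 and Bowtie2 2.1.0. Annotation release and strand setting: not given in the sources used here. Genes that overlap others are therefore uncertain.

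All 6 samples entered 1 fit in R 4.3.3 with edgeR 4.0.16: filterByExpr (minimum count 10, minimum total 15), scaling by TMM, a quasi-likelihood F test with genotype as the only term, and Benjamini-Hochberg adjustment over all genes tested. A gene is called at an adjusted p at or under 0.05. CPM uses the TMM-scaled library size, and levels per kilobase use all exon bases of a gene in GENCODE M21, which matched 48349 of 48709 identifiers. The test was checked on simulated counts, which held no trend with GC content. That check therefore does not cover the GC trend of these libraries. Replicates differed beyond sampling noise (chi-square per degree of freedom 13.1 to 28.1).

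The genes, the role groups, the further pathway list, the marker lists and the rule for named genes were chosen with earlier results of these data known. By that rule, called genes, genes with separate groups and the most abundant gene of each role have full values. Of the further list, called genes, genes with separate groups and an unadjusted p under 0.05, and the 5 most abundant are named. Acaca, Acacb and Lpin1 were named after their values were seen.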

Additional observations from a re-analysis of the deposited data

How the results depend on the processing

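Results were recomputed with other scalings, filters and tests, with the replicate block, offsets for GC content and length, a threshold of 0.1 and each library left out. Of the 29 sterol genes, 2 were called in the reported fit (edgeR), 1 with library size scaling, 1 with DESeq2's size factors, 6 without a filter, 1 at a mean CPM of at least 1, 6 with DESeq2 1.42.0, 1 with limma-voom (limma 3.58.1), 4 with the offsets and 4 at an adjusted p of 0.1. Leaving out 1 library gave 0 to 3 (edgeR; 6 to 11 at an unadjusted p under 0.05), and 3 came without knock-in replicate 2. Srebf1 was called in 10 of 18 alternatives and Scd1 in 12, with log2 fold changes from 0.39 to 0.63 and from -0.48 to -0.35. The calls of Scd2 (8), Cyp51 (5), Msmo1 (4), Mvk (3), Idi1 (2), Insig1 (2) and Hmgcs1 (1) arose only under alternatives. Over all genes, 318 calls (105 higher, 213 lower) became 513 with library size scaling (323 higher, 190 lower), 1303 without a filter, 934 with DESeq2, 746 with voom quality weights, 721 with the offsets, 721 at an adjusted p of 0.1 and 39 to 858 with 1 library left out (39 without knock-in replicate 1, 858 without knock-in replicate 2). The further pathway list had 2 calls, 6 without a filter, 4 with DESeq2 and 0 to 2 with 1 library left out (9 to 12 at an unadjusted p under 0.05). The median log2 fold change of the 29 genes was -0.07, and -0.00047 with library size scaling, where the median of all genes was 0.08. That scaling took the regulators from 0.04 to 0.11 (-0.02 to 0.09 with 1 library left out), the offsets took the early steps from 0.05 to -0.047 (0.00038 to 0.11 with 1 library left out), and leaving out 1 library took turnover and efflux from -0.01 to between -0.10 and 0.045. The cause was not tested. The direction held in all 18 alternatives for 20 of the 29 genes and 21 of the 32 further genes. No called gene reversed.

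With the replicate block, 9 of the 29 genes, 8 of the further list and 2034 of all genes were called, and with the block and the offsets 7, 10 and 1500, with the early steps at -0.047. The labels do not state that the numbers pair the samples. Same-numbered samples correlated at 0.03, 0.24 and 0.44, and other-numbered samples at -0.37 to 0.09. Knock-in replicates 2 and 3 each correlated best with the wild-type sample of the same number. Wild-type replicate 1 correlated best with knock-in replicate 2 (0.09).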
